A study of Drosophila melanogaster with 2 samples.

Results

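The 191 binding summits described here lie 0 to 500 bp downstream of the nearest transcription start site (TSS) of a protein-coding gene, with no start site of another protein-coding gene within 500 bp of the summit. They are 191 of 6154 summits (3.10%) in the IDR-thresholded peak list, a list cut where the ranking of peaks stops being reproducible between replicates (irreproducible discovery rate), and their position alone chose them. Protein-bound chromatin was precipitated and sequenced (ChIP-seq) from whole Drosophila melanogaster embryos, both sexes pooled, aged 0 to 12 h. Both samples, biological replicates 1 and 3, came from a transgenic line that stably expresses the J isoform of Lola (Lola-RJ) fused to GFP at its C terminus. The labels describe an anti-GFP precipitation while their antibody field names lola, and chromatin was sonicated to 200 to 800 bp. All cell types of the embryo are mixed in each sample, so a site bound in few cells and a site bound weakly in many cannot be told apart.

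Lola is a BTB zinc-finger transcription factor whose many splice isoforms share the BTB domain but differ in their zinc fingers, and its best-known role is in axon growth and guidance. A transcript begins with a 5′ untranslated region (5′ UTR), which ends at the start codon and is often interrupted by the first intron. Many fly genes start from several alternative promoters, so DNA inside the leader of one transcript can be promoter DNA for a shorter one.

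The strongest summits that lie wholly inside an intron show the A/T-rich DNA found at most of the intronic sites. Each 101-bp window is centred on the summit and given 5′ to 3′ on the gene's strand (dm6, from the NCBI RefSeq copy of the assembly), and capitals mark a match to one of 8 short motifs searched on both strands, here the reverse complement of TATAAA. The windows are CG43116 (chr3R:25996537-25996637, minus strand, summit 409 bp from the TSS), CG31612 (chr2L:21794934-21795034, minus, 463 bp), Ada2b (chr3R:8239971-8240071, minus, 494 bp), Ptp4E (chrX:4939920-4940020, plus, 389 bp) and hng3 (chr3L:738852-738952, minus, 447 bp).
CG43116: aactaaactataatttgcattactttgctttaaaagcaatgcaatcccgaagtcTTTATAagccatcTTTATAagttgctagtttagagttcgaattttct
CG31612: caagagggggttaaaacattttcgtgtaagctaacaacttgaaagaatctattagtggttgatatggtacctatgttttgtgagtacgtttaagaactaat
Ada2b: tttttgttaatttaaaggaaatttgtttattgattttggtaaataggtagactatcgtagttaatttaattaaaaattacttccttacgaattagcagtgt
Ptp4E: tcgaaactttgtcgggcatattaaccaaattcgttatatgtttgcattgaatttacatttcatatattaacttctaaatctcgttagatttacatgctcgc
hng3: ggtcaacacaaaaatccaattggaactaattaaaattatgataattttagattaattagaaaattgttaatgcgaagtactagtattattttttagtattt
In these windows A and T make up 70.3%, 66.3%, 77.2%, 69.3% and 79.2% of the bases, in the order printed.

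The strongest summits in 5′ UTRs are shown as the 30 bases around the summit, again on the gene's strand, for PNPase (chr3R:31404648-31404677, minus), ph-p (chrX:2137956-2137985, minus), CG9399 (chr3R:9574133-9574162, minus), Eip75B (chr3L:17999772-17999801, minus) and CG12316 (chr3L:15136828-15136857, minus). Capitals mark TATAAA as its reverse complement and a run of 7 or more A.
PNPase: tcaagaaacgtacagggcttttattgtaag
ph-p: tgaaacattaataaacttaaaacttaataa
CG9399: tattTTTATAattgtgtaattgtatgtgtt
Eip75B: ataataaacaacttgccAAAAAAAAtccaa
CG12316: tgcacttgaatatttggataattacgtacg
Most of these 30-base stretches are also rich in A and T, at 63.3%, 86.7%, 83.3%, 76.7% and 66.7% in the order printed.

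Downstream summits were sparse beside upstream ones. The list held 26.1 downstream summits per Mb of DNA that the rule could have taken (exact Poisson 95% interval 22.5 to 30.1, which covers counting error only), against 196 per Mb in the matching upstream DNA (185 to 207) and 46.0 per Mb over the chromosome arms as a whole. Downstream summits thus made up 13.9% of the 1371 summits at single-gene promoters (Wilson 95% interval 12.2% to 15.9%). When the same rule was applied to the 6154 strongest peaks of each replicate, it found 277 downstream summits in replicate 1 and 154 in replicate 3, a mean of 215.5 ± 87.0 (SD, n = 2). As a share of single-gene promoter summits these were 18.9% in replicate 1 and 11.6% in replicate 3. Both replicates had fewer downstream than upstream summits, and replicate 1 had more downstream summits than replicate 3.

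The 2 replicates shared 95 downstream summits, which is 34.3% of those in replicate 1 and 61.7% of those in replicate 3. Of the 277 in replicate 1, 83 were matched within 100 bp only by a lower peak of replicate 3 (median rank 10348 of 30000), and 77 had no match in its list. Of the 154 in replicate 3, 20 were matched only by a lower peak of replicate 1 and 22 had no match. The surplus of replicate 1 lay largely in peaks that replicate 3 ranked low or lacked. Upstream counts were close, at 1190 in replicate 1 and 1172 in replicate 3.

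In the IDR-thresholded list, over all annotations together, density was highest next to the start site and fell over the first 300 bp. It was 47.4 per Mb in the first 50 bp, 42.2 at 50 to 99 bp, 28.2 at 100 to 199 bp and 12.4 at 200 to 299 bp. Further in, it was 22.2 per Mb at 300 to 399 bp and 23.5 at 400 to 500 bp. Within 5′ UTRs it was 51.5 per Mb in the first 50 bp, 50.9 at 50 to 99 bp and 44.0 at 100 to 199 bp, and 10.3 at 200 to 299 bp. Within introns it was 51.9 per Mb at 100 to 199 bp, 36.3 at 200 to 299 bp, 57.5 at 300 to 399 bp and 56.9 at 400 to 500 bp. The pooled fall over the first 200 bp was thus steeper than that within 5′ UTRs. Over all annotations, the Poisson intervals of the first 50 bp (32.8 to 66.2) and of 50 to 99 bp (28.5 to 60.2) overlapped. Replicate 1 had 78.0 and 56.2 per Mb in these bins, whereas replicate 3 had 36.2 and 40.8. The side of the TSS for the summits in the first 50 bp is not fixed by these data, as described below. The median distance was 178 bp (quartiles 76 and 369.5 bp).

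**Figure D1:**
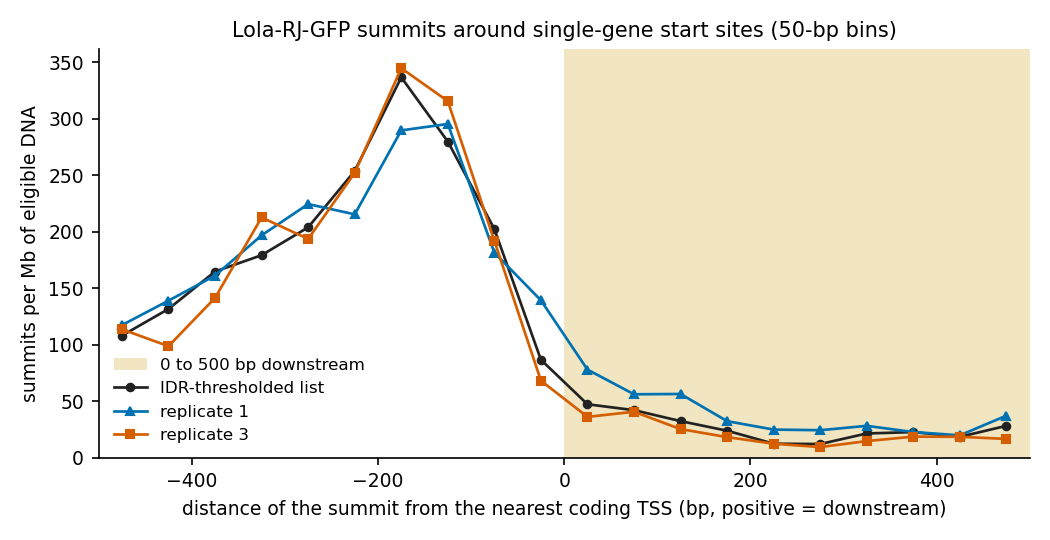
Summits per Mb of eligible DNA (y axis) against distance from the nearest coding TSS in bp (x axis, positive downstream, 50-bp bins) for the IDR-thresholded list and for the strongest peaks of each replicate. All 3 lines peak 100 to 200 bp upstream and are low over the shaded downstream side, where replicate 1 lies above replicate 3 in every bin.

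Downstream summits lay in 5′ UTRs and introns and almost never in coding exons. Of the 191, 101 (52.9%) had the summit base in a 5′ UTR, 86 (45.03%) in an intron, 2 (1.05%, Wilson interval 0.288% to 3.74%) in a coding exon and 2 in a 3′ UTR of an overlapping transcript. The eligible DNA was 35.2% 5′ UTR, 22.2% intron and 40.3% coding exon, the rest being mostly 3′ UTR. The coding share was as low in each replicate taken alone, with 5 of 277 summits (1.81%) in replicate 1 and 3 of 154 (1.95%) in replicate 3. The 5′ UTR share was 61.0% in replicate 1 and 50.6% in replicate 3, and the intron share was 36.8% and 46.8%.

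**Figure D2:**
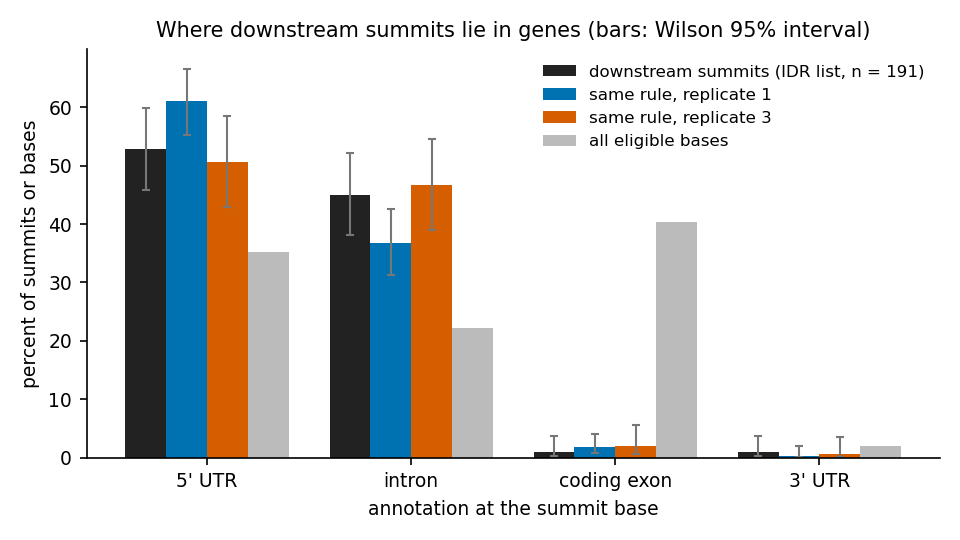
Percent of downstream summits (IDR-thresholded list, replicate 1, replicate 3) and percent of all eligible bases (y axis) in each annotation (x axis), with Wilson 95% intervals on the summits. Coding exons hold 40.3% of the eligible bases and under 2% of the summits in all 3 lists.

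Per Mb, the density was 52.9 in introns (42.3 to 65.3), 39.2 in 5′ UTRs (31.9 to 47.7) and 0.678 in coding exons (0.0821 to 2.45). Replicate 1 had 62.7 per Mb in introns, 65.6 in 5′ UTRs and 1.69 in coding exons. Replicate 3 had 44.3, 30.3 and 1.02 per Mb in the same order. Coding exons stood lowest in both replicates, whereas the order of introns and 5′ UTRs was not the same in the 2 replicates.

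Coding DNA is poorer in A and T than the other classes, with a median of 47.5% over 101-bp windows, against 56.4% for 5′ UTRs and 60.4% for introns. Within windows of 55% to under 65% A/T, the density was 35.3 per Mb in 5′ UTRs, 30.8 in introns and 3.98 in coding exons (2 summits, 0.482 to 14.4). Coding exons thus stood lowest in this band too, though A/T content inside the band and distance from the TSS were not matched. The part of base composition was not tested. In windows of 65% to under 75% A/T, the density was 85.3 per Mb in 5′ UTRs and 93.1 in introns. No summit fell in the 78123 coding bases of that composition, for which the upper Poisson bound is 47.2 per Mb.

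The 2 coding-exon summits differed in strength. The one 416 bp into CG44812 had a signal of 344.9 (rank 2293 of 6154), just above the upper quartile of the downstream summits, and was ranked 3262 in replicate 1 and 1887 in replicate 3. The one 487 bp into CG3919 had a signal of 176.9 (rank 4878), and was ranked 5853 in replicate 1 and 4197 in replicate 3. Both were found in both replicates. The summits in 3′ UTRs were nearest to the starts of Strn-Mlck and veil.

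Most downstream summits came before the start codon. A total of 157 of the 191 (82.2%, Wilson interval 76.2% to 87.0%) preceded the first start codon of the transcripts from their TSS, against 45.7% of the eligible bases. Of the 34 at or past it, 31 lay in introns, 2 in coding exons and 1 in a 5′ UTR of another transcript, while 74.0% of the eligible bases at or past the start codon were coding. TSSs with a downstream summit had long leaders, a median of 669.5 bp of genomic distance to the start codon, against 402 bp for TSSs with an upstream summit and 171 bp for all coding TSSs. Their first exons were short, with a median of 245 bp, against 319 bp and 291 bp. A first-intron summit within 500 bp of the TSS requires a first exon shorter than 500 bp, so the rule partly sets this median.

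Of the 86 intronic summits, 83 lay in the first intron of a transcript from the nearest TSS, a median of 149.5 bp past the end of the first exon for all 86. The limit of 500 bp itself keeps them close to the first exon, so these values are a description. Those first introns had a median length of 880 bp, against 201.5 bp for the first introns of all coding TSSs, so longer introns also offer more eligible DNA. The median distance from the TSS was 352.5 bp for intronic summits and 81 bp for 5′ UTR summits.

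Many of the downstream summits lay just upstream of another start site of the same gene. In 46 of 191 cases (24.1%, Wilson interval 18.6% to 30.6%) a further TSS of the gene lay within 500 bp ahead, against 3.40% of the eligible bases. In that DNA the density was 185 summits per Mb (135 to 247), near the 196 per Mb of upstream DNA, and elsewhere it was 20.5 per Mb (17.3 to 24.1). Replicate 1 had 213 per Mb in such DNA and 31.7 elsewhere, and replicate 3 had 177 and 15.6. The ordering was the same in both replicates, and the intervals of the 2 kinds of DNA did not overlap in either.

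**Figure D3:**
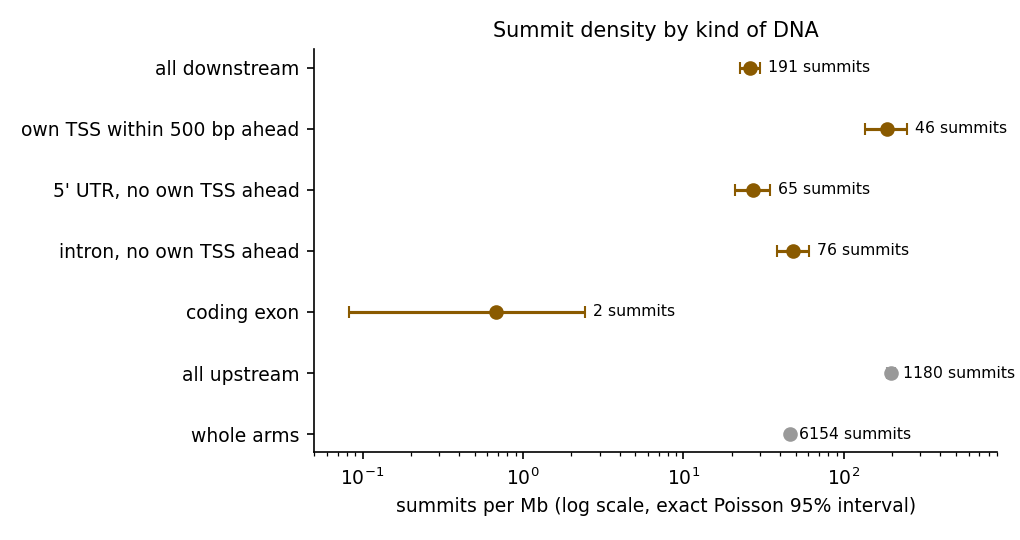
Summits per Mb (x axis, log scale, exact Poisson 95% interval) in kinds of downstream DNA and, in grey, in upstream DNA and whole arms. DNA with another TSS of the same gene within 500 bp ahead (185 per Mb) lies near upstream DNA (196 per Mb), and coding exons are lowest (0.678 per Mb).

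These 46 summits stood a median of 93.5 bp past their nearest TSS and 180 bp short of the next one. By annotation, 36 were in 5′ UTRs (200 per Mb of such 5′ UTR DNA) and 10 in introns (171 per Mb). The remaining 145 summits included 65 in 5′ UTRs (27.1 per Mb), 76 in introns (48.5 per Mb) and both coding-exon summits. In the IDR-thresholded list without the 46, introns held more summits per Mb than 5′ UTRs did. Their intervals (38.2 to 60.7 and 20.9 to 34.6), which cover counting error only, did not overlap. This split was chosen after seeing the data, and its densities by annotation were not read in each replicate. Over all downstream DNA, the order of introns and 5′ UTRs differed between the replicates.

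PNPase (FBgn0039846), which encodes the mitochondrial exoribonuclease polynucleotide phosphorylase, carried the strongest downstream summit of all and belongs to this kind. The summit lay 77 bp past its nearest TSS and 95 bp short of the next, and its signal was 1119 in replicate 1 (rank 59) and 1400 in replicate 3 (rank 34). CG9399 had its summit 63 bp past one TSS and 162 bp short of the next, at ranks 161 and 139. GstE13, a glutathione S-transferase gene, had 63 and 136 bp, CAH3, a carbonic anhydrase gene, had 132 and 167 bp, and CG4497 had 67 and 108 bp. Further ones among the 25 strongest were CG12316, CG14434, pnut, which encodes a septin, and sqh, which encodes the regulatory light chain of non-muscle myosin II.

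Genes with several start sites were common throughout. Of the 191 summits, 147 (77.0%) were at genes with more than 1 annotated TSS, against 26.5% of all coding genes, though genes with more start sites also offer more eligible DNA. The nearest TSS was the gene's most upstream one for 103 summits. A summit at any distance upstream of a further TSS of its gene was seen for 104 (54.5%).

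The 191 summits belonged to 182 genes, 1.31% of all 13945 coding genes, and 9 genes had 2 of them. For 14 of the summits the peak interval was shared with a stronger summit, so the summits are not all separate peaks. Signals, on the authors' scale, had a median of 223.3 (quartiles 172.7 and 343.9), against 281.7 for upstream summits and 268.4 for all summits. The median rank was 3759, against 2911 for upstream summits. The same order held in replicate 1 (4225 against 2839.5) and in replicate 3 (3569.5 against 3005.5). Downstream summits were weaker than upstream ones in both replicates, though 24 of the 191 were among the 1000 strongest of the list.

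After PNPase, the next in strength was ph-p (FBgn0004861), a subunit gene of Polycomb repressive complex 1. Its summit lay 400 bp into a first exon of 714 bp, with a signal of 840.4 in replicate 1 (rank 126) and 1401 in replicate 3 (rank 33). A weaker summit (signal 177.0) lay 26 bp past another ph-p TSS. CG43116 had an intronic summit at 409 bp with signals of 686.4 and 1054 in replicates 1 and 3. CG31612 had one at 463 bp, with signals of 861.8 and 802.6.

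Genes of varied roles came next. Eip75B (FBgn0000568), an ecdysone-induced nuclear receptor gene, had its summit 34 bp past the TSS, with signals of 777.4 in replicate 1 and 718.6 in replicate 3. Ada2b (FBgn0037555), a subunit gene of the histone acetyltransferase complex SAGA, had an intronic summit at 494 bp that ranked 141 in replicate 1 and 797 in replicate 3, the widest difference in rank among the 12 strongest. Ptp4E, a receptor tyrosine phosphatase gene, had one at 389 bp with close ranks, 365 and 318. The summit of hng3 lay at 447 bp, at ranks 294 and 403.

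The rest of the 25 strongest were intronic in ogre (an innexin), rudhira, PKD (protein kinase D), scramb2 (a scramblase), Sxl (the sex-determination RNA-binding protein) and Gli (gliotactin, of septate junctions). They were in 5′ UTRs in eas (an ethanolamine kinase), CHES-1-like (a forkhead factor) and amn (amnesiac, a neuropeptide precursor). Their signals ran from 588.0 at Gli to 913.6 at ogre. All 25 were among the 6154 strongest peaks of both replicates, at ranks up to 1365 in replicate 1 and up to 1233 in replicate 3.

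Genes were also read by lists, chosen with earlier results known, with no test of enrichment. In the list of chromatin, insulator and BTB factors, 8 of 66 genes (12.1%) had a downstream summit, against 1.31% of all coding genes, and 10 (15.2%) had an upstream one, against 7.56%. The 8 were ph-p, its neighbouring paralog ph-d, Trl (the GAGA factor), ab (a BTB zinc-finger factor), Utx (a histone H3K27 demethylase), trx (a histone methyltransferase), CTCF (an insulator protein) and fs(1)h (a BET bromodomain protein). Apart from the stronger ph-p summit, their signals ran from 161.6 at fs(1)h to 350.5 at Trl, against a median of 223.3 and an upper quartile of 343.9 over all downstream summits. The CTCF summit had no match in the list of replicate 3 and the fs(1)h summit none in that of replicate 1. In replicates 1 and 3, Trl was ranked 2535 and 1983 and Utx 3043 and 2998. The ab summit lay at 0 bp in the IDR-thresholded list but upstream of the TSS in both replicates. It was at -10 bp in replicate 1 and at -14 bp in replicate 3. The count of 8 therefore includes 1 gene, ab, whose summit was not downstream in either replicate.

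Among cytosolic ribosomal protein genes, 2 of 93 had a downstream summit, RpL26 (35 bp, signal 492.6) and RpL9 (7 bp, 151.9), while 25 had an upstream one. The RpL9 summit ranked 6265 in replicate 1, where it lay upstream at -16 bp, and 6782 in replicate 3. The cell cycle list gave 2 of 66, Dp (439 bp, 478.3), the partner of E2F, and CycT (28 bp, 182.7). In replicate 3 the CycT summit ranked 8341 and lay upstream, at -19 bp. The patterning list gave 2 of 84, shn, a zinc-finger factor of Dpp signalling, with summits at 0 and 206 bp, and the Hox gene lab with an intronic one at 308 bp (272.6). The shn summit at 206 bp ranked 8140 in replicate 3. The Notch list gave mib1 (14 bp, 192.7), a ubiquitin ligase acting on Notch ligands, as 1 of 25, and translation factors gave pAbp (489 bp, 367.7), the poly(A)-binding protein gene, as 1 of 90. No downstream summit fell at the 75 mitochondrial ribosomal protein genes, the 95 respiratory chain genes, the 48 proteasome genes, the 37 chaperone genes or the 64 axon guidance and adhesion genes, where between 3 and 10 genes of each list had an upstream one. Over all coding genes, 1.31% had a downstream summit and 7.56% an upstream one. At the former share, lists of this size hold few or none, so these low counts and absences are no result about the lists.

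For 15 downstream summits a second summit of the list lay upstream of the same TSS, and the upstream one was the stronger in 9. At CG43116 the downstream summit had a signal of 1739 and the upstream one, at 289 bp, had 2359. At CG12316 the downstream summit was the stronger, with 1288, against 453.1 at 123 bp upstream. Dp, dbo and CG14223 also had the stronger summit downstream in this list, though in replicate 1 the CG14223 summit lay upstream, at -19 bp.

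Starts of non-coding genes and transposable elements near the summits were counted without a share over all summits or bases. The counts therefore do not show whether such neighbours were few or many. A non-coding RNA started within 500 bp of 8 summits, a tRNA gene (at CG30122) of 1 and an annotated transposable element of 5. The Ada2b summits, both among the latter, were near the same element. Summits were spread over all arms, with 42 on X, 41 on 3R, 40 on 2R, 39 on 3L, 28 on 2L and 1 on 4. X held 22.0% of downstream summits, against 17.2% of the eligible bases and 18.2% of all summits, but the share was 18.4% in replicate 1 and 25.3% in replicate 3.

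Downstream summits were found again in both replicates less often than the whole list, and the shortfall lay in replicate 3. A summit was called found when a peak among the 6154 strongest of a replicate had its summit within 100 bp. In replicate 1, 166 of 191 (86.9%) were found, against a background of 83.7% over all summits of the list. In replicate 3, 135 (70.7%, Wilson interval 63.9% to 76.7%) were found, against 85.2% of all summits. Both replicates held 118 (61.8%, 54.7% to 68.4%), against 71.3% of all summits, and neither held 8. The lists were called from the same reads, so this describes the lists and is no independent test, and the lower rank of downstream summits moves with it, whose part was not tested. In the full lists of 30000 peaks, 167 of 191 (87.4%) were matched in both replicates, against 92.7% of all summits.

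Matched summits lay close together in the replicates, but matching within 100 bp of the listed summit itself limits the shift and leaves out unmatched summits. For the 167 matched in both, the median absolute shift was 25 bp, against 27 bp for upstream summits, and the SD of the shift was 43.1 bp. The summit stayed downstream in both replicates for 152 of the 167 (91.0%, Wilson interval 85.7% to 94.5%). A summit more than 100 bp from its TSS cannot change side under this matching, so only the nearer ones bear on the question. Of those 50 bp or more from the TSS, 136 of 139 stayed downstream in both, and this count includes the fixed ones. Of those nearer than 50 bp, only 16 of 28 did, so the side of the 34 nearest summits is not fixed by these data. Upstream summits kept their side in 1052 of 1073 cases (98.0%).

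**Figure D4:**
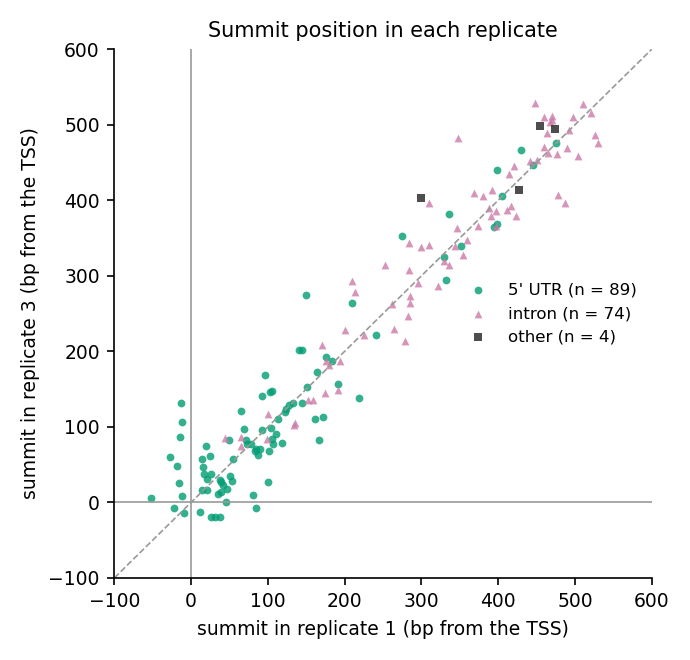
Position of each downstream summit relative to its TSS in replicate 1 (x axis, bp) and in replicate 3 (y axis, bp) for the 167 matched in both lists, by annotation; the dashed line marks equal positions. Matching within 100 bp of the listed summit keeps the points near the line. Those that fall below 0 in either replicate are 5′ UTR summits close to the TSS.

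At the limits of the rule, the members just inside 0 bp were ab and shn at 0 bp and CG10809 at 4 bp, and those just outside were RpL37A at 1 bp, scny at 2 bp and Meltrin at 2 bp upstream. The members just inside 500 bp were qtc at 499 bp, CG8128 at 498 bp and Ada2b at 494 bp. Just outside were aru at 501 bp, COX7AL2 at 506 bp and CG14478 at 507 bp.

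The downstream share grew as peaks became weaker. It was 8.66% of single-gene promoter summits at ranks 1 to 1000 of the pooled list, 11.1% at ranks 1001 to 3000 and 17.6% at ranks 3001 to 6154. Past the IDR cut it was 31.4% at ranks 6155 to 12000, 44.8% at ranks 12001 to 20000 and 48.5% at ranks 20001 to 30000. Replicate 1 had 10.2%, 12.3%, 25.8%, 37.5%, 45.1% and 49.8% over the same ranks, and replicate 3 had 8.0%, 10.5%, 13.7%, 24.3%, 42.5% and 50.2%. The eligible downstream and upstream DNA were 7320034 and 6028375 bases.

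**Figure D5:**
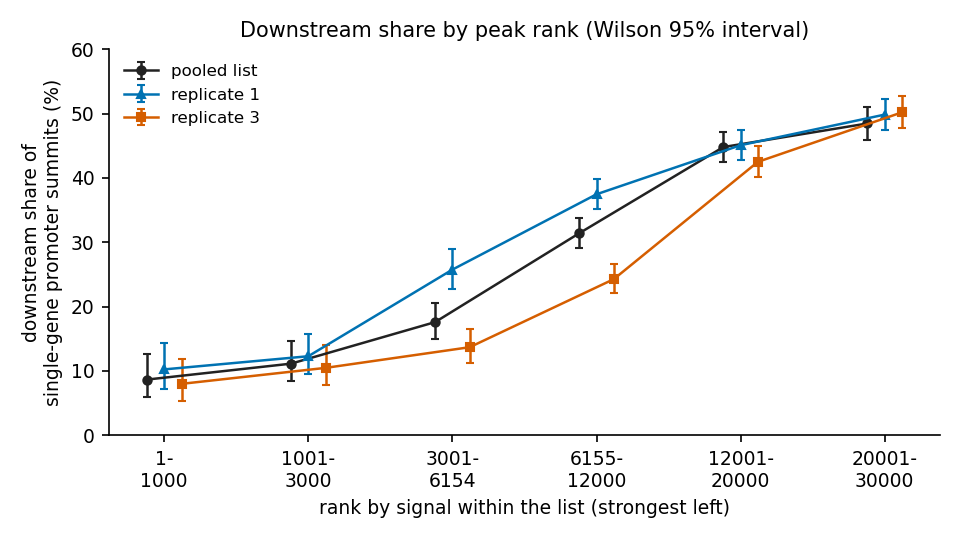
Downstream share of single-gene promoter summits in percent (y axis, Wilson 95% interval) by peak rank (x axis, strongest left) in the pooled list and in each replicate. The share is 8.0% to 10.2% among the 1000 strongest peaks and 48.5% to 50.2% at ranks 20001 to 30000.

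Downstream summits were A/T-rich for their surroundings, though less so than upstream summits. The median A/T content of the 101 bp around the summit was 65.3%, against 53.5% for all eligible downstream bases, and 71.3% for upstream summits, against 60.4% for all eligible upstream bases. By annotation it was 62.4% at 5′ UTR summits, against 56.4% for all such bases, and 69.3% at intronic summits, against 60.4%. The median was 61.4% in replicate 1 and 66.3% in replicate 3, both above the bases and below their own upstream summits at 70.3% and 71.3%.

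Of the motifs, TATAAA was held by 39 of 191 windows (20.4%, Wilson interval 15.3% to 26.7%), against 8.35% of windows at all eligible downstream bases, and by 27.4% of upstream summits. Shares in the replicates differed, at 13.7% in replicate 1 and 23.4% in replicate 3, and both exceeded that of all bases. A run of 7 A was held by 13.1%, against 7.25% of all windows, with 9.75% in replicate 1 and 11.04% in replicate 3. These 2 motifs consist of A and T, so their shares move with the base composition above.

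ATCGATA, the core of the DNA replication-related element, was held by 8 windows (4.19%, 2.14% to 8.05%), against 1.35% of all windows. It was in 6.14% of those in replicate 1 and 2.60% in replicate 3, and upstream summits had 4.49%. GTCACAC, a core of promoter motif 1, was in 4 windows (2.09%, 0.817% to 5.26%), against 0.986%, with 6 of 277 windows in replicate 1 and 0 of 154 in replicate 3. CAGCTG was in 11 (5.76%), against 5.33%, and CACGTG in 1 (0.524%), against 1.45%. GAGAG, the core bound by the GAGA factor, was in 16 windows (8.38%), against 11.7% of all windows, and the interval of each of these last 4 motifs held the share of all windows.

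CACACA was in 22 windows (11.5%, 7.73% to 16.8%), against 8.92% of all windows and 4.92% of upstream summits, but its share was 15.2% in replicate 1 and 5.19% in replicate 3. Of these 22 summits, 19 were found in replicate 1, 7 in replicate 3 and 6 in both. TCAGT, a form of the initiator, lay within 20 bp of 27 of the 184 TSSs with a downstream summit (14.7%, 10.3% to 20.5%), against 21.2% of TSSs with an upstream summit and 18.0% of all coding TSSs. A match is only a match of letters in the window.

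The strongest summits with each motif outside the windows printed above are given as 30 bases around the match, shown in capitals and on the gene's strand. They are Eip75B (chr3L:17999809-17999838, minus, GAGAG as its reverse complement), RpL26 (chr3L:18898850-18898879, plus, ATCGATA on both strands, overlapping), mib1 (chr3L:16011823-16011852, minus), CG9399 (chr3R:9574166-9574195, minus), jvl (chr3R:14749587-14749616, plus) and IntS6 (chrX:5746076-5746105, minus), whose gene encodes an Integrator subunit.
Eip75B: tctatttaaaatCTCTCacttactagtgaa
RpL26: gatgacagtgtTATCGATActagctgaatt
mib1: tcctgcgtaacGTCACACtgttaatctatc
CG9399: gctgtagtacccCAGCTGttgcggtgctaa
jvl: ttcagcctagcgCACGTGtctcaatatttt
IntS6: tcaacgataaatCACACAccgctcgtttaa
The CG9399 and jvl stretches lie in 5′ UTRs and the IntS6 stretch in an intron. The mib1 stretch ends 11 bp upstream of the TSS, and the Eip75B and RpL26 stretches cross the TSS, from 17 and 25 bp upstream of it, with the match on the upstream side.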

How the data were processed

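Peak lists on dm6 were used as deposited by the authors, in narrowPeak form: 30000 peaks for each replicate and for both pooled, and 6154 after IDR thresholding, which were the strongest of the pooled list. Per the submitters' file records, lists were made from alignments and a control alignment; read depth is unknown, and for the aligner and peak caller a name is not given in the sources used here. Column 7 is a signal score deposited by the authors on a scale not given, used within a list alone. Column 9, deposited by the authors, is a −log10 q value and ranked nothing here. The summit base came from the start and the summit offset deposited by the authors.

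Start sites and exons came from Ensembl release 115 (19607 coding TSSs of 13945 genes) and sequence from the NCBI RefSeq copy of the assembly. Annotation went by 5′ UTR, then 3′ UTR, coding exon and intron over all coding transcripts. Every base the rule could take was enumerated (7320034), so shares of bases have no error. A/T content and motifs were read in 101 bp. Python 3.11.15, numpy 2.4.6, pandas 2.3.3 and scipy 1.17.1 were used, and the position rule and matching were tested on simulated data. With 1 group and 2 replicates, values are descriptions with 95% intervals of counting error, beside each replicate's value. The labels number the replicates as biological, and nothing more is said of their origin.

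The members and lists were chosen with earlier results of these data known. Genes named are those of the 25 strongest members, coding-exon members, the 3 nearest each limit inside and outside, up to 3 strongest of each of 11 lists (for the chromatin list all 8 genes, added after values were seen), up to 5 strongest with a second upstream summit and those whose sequence is shown. The summits in 3′ UTRs and near a tRNA gene were named after their values were seen. The split by a further start site of the gene was also chosen after seeing the data. Alternatives are described in the closing section.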

Additional observations from a re-analysis of the deposited data

How the results depend on the processing

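No paired analysis was possible because there is 1 group. Of 83 alternative values, 52 were classed as unchanged and 31 as moved, and the cause was not tested. Shares and A/T content were judged by the SD between the replicate lists, which are themselves among the alternatives. Recovery and side were judged by the main Wilson interval, and numbers of summits by a fixed limit on their ratio to the main number. Counting either replicate alone gave 154 to 277 downstream summits, a share of 11.6% to 18.9%, median A/T of 61.4% to 66.3%, coding-exon shares of 1.81% to 1.95%, intron shares of 36.8% to 46.8% and 5′ UTR shares of 50.6% to 61.0%. A window of 250 bp gave shares of 1.22% coding, 18.3% intron and 79.9% 5′ UTR, and 80.4% kept their side. A window of 1000 bp gave 370 summits, a downstream share of 22.5%, 0.541% coding, 70.8% intron and 26.8% 5′ UTR, and 96.7% kept their side. Without the exclusion of neighbouring genes there were 357 summits, with 1.40% coding, 31.4% intron and 66.4% 5′ UTR. The strongest 3077 peaks of the list gave 70 summits, median A/T of 69.3%, 1.43% coding and 94.3% found in both replicates. With 1 TSS per gene 1.18% were coding, and with interval midpoints 1.15%, with 87 intronic and 83 5′ UTR summits. Matching within 50 bp found 50.8% in both replicates, within 200 bp 70.2%, and in the full lists 87.4%. Leaving out summits with another TSS of the gene within 500 bp ahead, chosen after seeing the data, gave 1.38% coding, 52.4% intron and 44.8% 5′ UTR. The coding share was between 0.541% and 1.95% in all of these, whereas introns outnumbered 5′ UTRs with the 1000-bp window, with midpoints and without summits ahead of another own TSS, and not in the other settings. Depth is unknown, so absence from a list is no absence of binding.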

Other observations

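Downstream summits below the IDR cut, which the report's counts leave out, held more coding DNA. The coding-exon share of downstream summits was 4.25% (21 of 494) at ranks 6155 to 12000 of the pooled list, 11.3% (86 of 758) at ranks 12001 to 20000 and 21.7% (161 of 743) at ranks 20001 to 30000. Replicate 1 had 6.87%, 15.7% and 23.1% over the same ranks, and replicate 3 had 3.50%, 11.5% and 22.4%. The eligible bases were 40.3% coding. The intron share of those peaks was 22.9%, 24.0% and 26.6% in the pooled list, against 22.2% of the eligible bases.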
